A study of Mus musculus with 32 samples.

Results

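The step described here is the interval from 36 to 48 h after mouse embryonic stem cells were taken out of 2i medium, and it was read from 4 of the 32 libraries of the series. The members were chosen by their labels: 2 libraries of cells collected 48 h after 2i withdrawal (replicates 1 and 2) were set against 2 libraries collected at 36 h (replicates 1 and 2). All 4 come from the E14 line, a feeder-free line of blastocyst-derived stem cells. The cells grew on gelatin in N2B27, a serum-free basal medium, with 2i (3 uM CHIR99021, which inhibits GSK3, and 1 uM PD0325901, which inhibits MEK). They were plated as single cells, and 1 day later 2i was removed and N2B27 alone was given. The 2 groups therefore share line, medium, plating and withdrawal, and differ in 12 h of further culture. The other libraries used for comparison are the remaining times of the same course and a parallel 2iL course, in which LIF, a cytokine that activates STAT3, had also been present before withdrawal. The labels do not say whether the 2 libraries of a time came from separate cultures. Each p-value rests on the spread between the libraries of a time, estimated over all 16 groups and 32 libraries. That spread may be technical.

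Cells kept in 2i hold a naive state that resembles the preimplantation epiblast. Once the inhibitors are removed, the naive network is shut down and the cells pass through a formative state like the early postimplantation epiblast, marked by Fgf5, Pou3f1, Otx2 and the de novo DNA methyltransferases, before lineage genes appear. In N2B27, which holds no added BMP or serum, the usual fate is neural ectoderm. The formative window is also when promoters of many germline genes gain DNA methylation in the epiblast.

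Poly(A) RNA was counted from the 3′ end of transcripts, and levels are CPM (counts scaled to the library size, here the counts in genes adjusted by TMM). The 48 h libraries held 1402548 and 2204675 counts, and the 36 h libraries held 1677168 and 1415744. A count of 0, read as a limit of 3 counts, thus allows a level of up to 2.14 and 1.36 CPM in the 48 h libraries, and up to 1.79 and 2.12 CPM in the 36 h libraries, for counting error only. The root mean square log2 difference over 8349 genes was 0.351 between the 48 h libraries and 0.369 between the 36 h libraries. Across the 2 times it lay between 0.480 and 0.511 for the 4 pairs, above both replicate distances. Reads assigned to no gene, which are outside these totals, were 35.2% and 37.7% of all counted reads at 48 h, against 29.3% and 33.1% at 36 h, and their part in the results was not tested. The gene model Gm42418, which overlaps ribosomal RNA sequence, took a share that differed between replicates of the same time, with 109203 and 191181 CPM at 48 h, against 103974 and 173576 CPM at 36 h (log2 fold change 0.11 ± 0.39, adjusted p = 0.96). The core factors of pluripotent cells were present in all 4 libraries: Pou5f1 (OCT4) had 52.01 and 68.5 CPM at 48 h, against 64.2 and 61.1 CPM at 36 h.

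Between 36 and 48 h, 226 of 11761 tested genes changed, which is 1.92% (edgeR quasi-likelihood test, Benjamini-Hochberg adjusted p under 0.05). Of these, 110 were higher at 48 h (0.935% of the tested genes) and 116 were lower (0.986%). In all 226 the 2 libraries of 48 h lay on one side of the 2 libraries of 36 h; without regard to the test, 24.4% of all genes lay wholly above and 24.1% wholly below. The called rises had a median log2 fold change of 1.54 and the called falls one of -1.67, and both stayed the same with the 7 genes that had no count at one time set to their bounds. All 110 rising genes were protein coding, and the falling genes held 105 protein-coding genes (90.5%), 8 lincRNAs and 3 antisense RNAs, where 97.1% of the tested genes with a type were protein coding; this difference was not tested. Without any one of the 4 libraries, 29 to 50 genes rose and 33 to 61 fell. Leaving out 48 h replicate 1 gave 50 rises and 58 falls, and leaving out 48 h replicate 2 gave 36 and 33. Leaving out 36 h replicate 1 gave 33 rises and 41 falls, and leaving out 36 h replicate 2 gave 29 and 61. In each of these 4 fits 12 of the rises and 23 of the falls were called again. No called gene changed sign, which follows from the lack of overlap between the times and says nothing about stability. With the RLE scaling 153 genes rose and 102 fell, which moves the share of rises, and DESeq2 called 34 and 34. Among the called genes named below, DESeq2 did not call, or gave no adjusted p for, Acvr2b, Col4a1, Ddx4, Dnmt3a, Dsg2, Elavl3, Fabp7, Fgf4, Grhl2, Halr1, Hes1, Irx3, Jag1, Kif1a, Lefty1, Magel2, Nkx1-2, Nr5a2, Nudt2, Platr20, Prss50, Rnf17, Slc16a3, Slc28a1, Spn, Stxbp4, Tbc1d16, Tfap2c, Utf1 and Zic1. Since these are bulk samples, fewer cells of a type and less RNA per cell cannot be told apart in any of the values that follow.

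**Figure D1:**
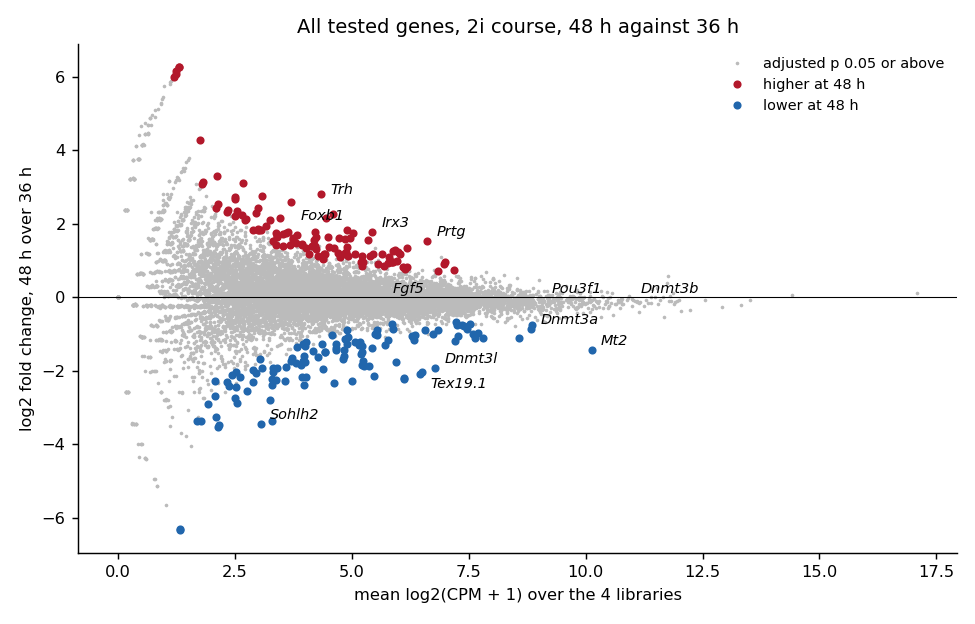
Log2 fold change of 48 h over 36 h in the 2i course (vertical axis) against the mean log2(CPM + 1) over the 4 libraries (horizontal axis), 1 point per tested gene, with the 110 genes called higher in red, the 116 called lower in blue and the rest in grey. Fgf5, Pou3f1 and Dnmt3b lie near 0 while Dnmt3a, Dnmt3l and Tex19.1 lie below it.

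The formative genes did not move together. Of 22 genes in a formative epiblast list, all tested, 0 rose and 3 fell (median log2 fold change 0.01, against 0 over all genes; DESeq2 called 0 and 1). By unadjusted p under 0.05, 3 were higher and 4 lower, beside 6.74% and 5.44% of all genes. Fgf5, the growth factor that marks the postimplantation epiblast, had 47.3 and 51.3 CPM at 48 h, against 54.1 and 46.7 CPM at 36 h. Pou3f1 (OCT6), a POU factor of the same stage, had 530.1 and 534 CPM at 48 h, against 526 and 569.9 CPM at 36 h. The 2 times overlapped for both genes, with log2 fold changes of -0.03 ± 0.26, adjusted p = 0.987, for Fgf5 and -0.04 ± 0.18, adjusted p = 0.968, for Pou3f1 (here and below ± gives the standard error of a log2 fold change). Dnmt3b, a de novo methyltransferase of the early embryo, had 1864 and 2136 CPM at 48 h, against 2072 and 2048 CPM at 36 h, also overlapping (-0.04 ± 0.19, adjusted p = 0.971). These 3 genes had their highest mean of the 8 times at 36 h. Their means at 60 h were 21.2 CPM for Fgf5, 256 CPM for Pou3f1 and 879 CPM for Dnmt3b, each below the means at 36 and 48 h. Otx2, a homeobox factor of the epiblast, had 341 and 377 CPM at 48 h, against 443 and 432 CPM at 36 h. Both 48 h libraries were below both 36 h libraries, and the difference missed the threshold (-0.28 ± 0.18, adjusted p = 0.571).

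Dnmt3l, the catalytically inactive partner that stimulates de novo methylation, fell most within the formative list. It had 71.4 and 43.1 CPM at 48 h, against 242 and 189 CPM at 36 h (-1.94 ± 0.25, adjusted p = 8.84e-06). The call held without any one of the 4 libraries, with a highest adjusted p of 0.00855. Dnmt3a, the second de novo enzyme, had 321 and 354 CPM at 48 h, against 532 and 709 CPM at 36 h (-0.88 ± 0.19, adjusted p = 0.00706). Dnmt3a was not called without 48 h replicate 1, 48 h replicate 2 or 36 h replicate 2 (adjusted p = 0.145, 0.0827 and 0.288). Over the 8 times from 0 to 84 h the mean of Dnmt3l was 161, 824, 585, 216, 57.2, 24.9, 7.66 and 2.68 CPM, highest at 12 h, while Dnmt3a was highest at 24 h. The transcripts of the 3 genes of the de novo machinery were thus at different points of their courses: at 48 h the mean was 57.2 CPM for Dnmt3l, against 216 CPM at 36 h, and 1999.9 CPM for Dnmt3b, against 2059.8 CPM at 36 h. Among the 9 writers and erasers of DNA methylation, all tested, 0 rose, and Dnmt3l and Dnmt3a fell (DESeq2 called Dnmt3l alone). The maintenance enzyme Dnmt1 had 207 and 253 CPM at 48 h, against 238 and 261 CPM at 36 h, and Tet1, which oxidises methylcytosine, had 155 and 149 CPM at 48 h, against 272 and 237 CPM at 36 h without passing the test (-0.74 ± 0.25, adjusted p = 0.143). The third called formative gene was Grhl2, an epithelial transcription factor, with 39.3 and 24.9 CPM at 48 h, against 66.5 and 63.3 CPM at 36 h (-1.04 ± 0.26, adjusted p = 0.0279). Grhl2 was not called without 48 h replicate 2, 36 h replicate 1 or 36 h replicate 2 (adjusted p = 0.519, 0.229 and 0.142).

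**Figure D2:**
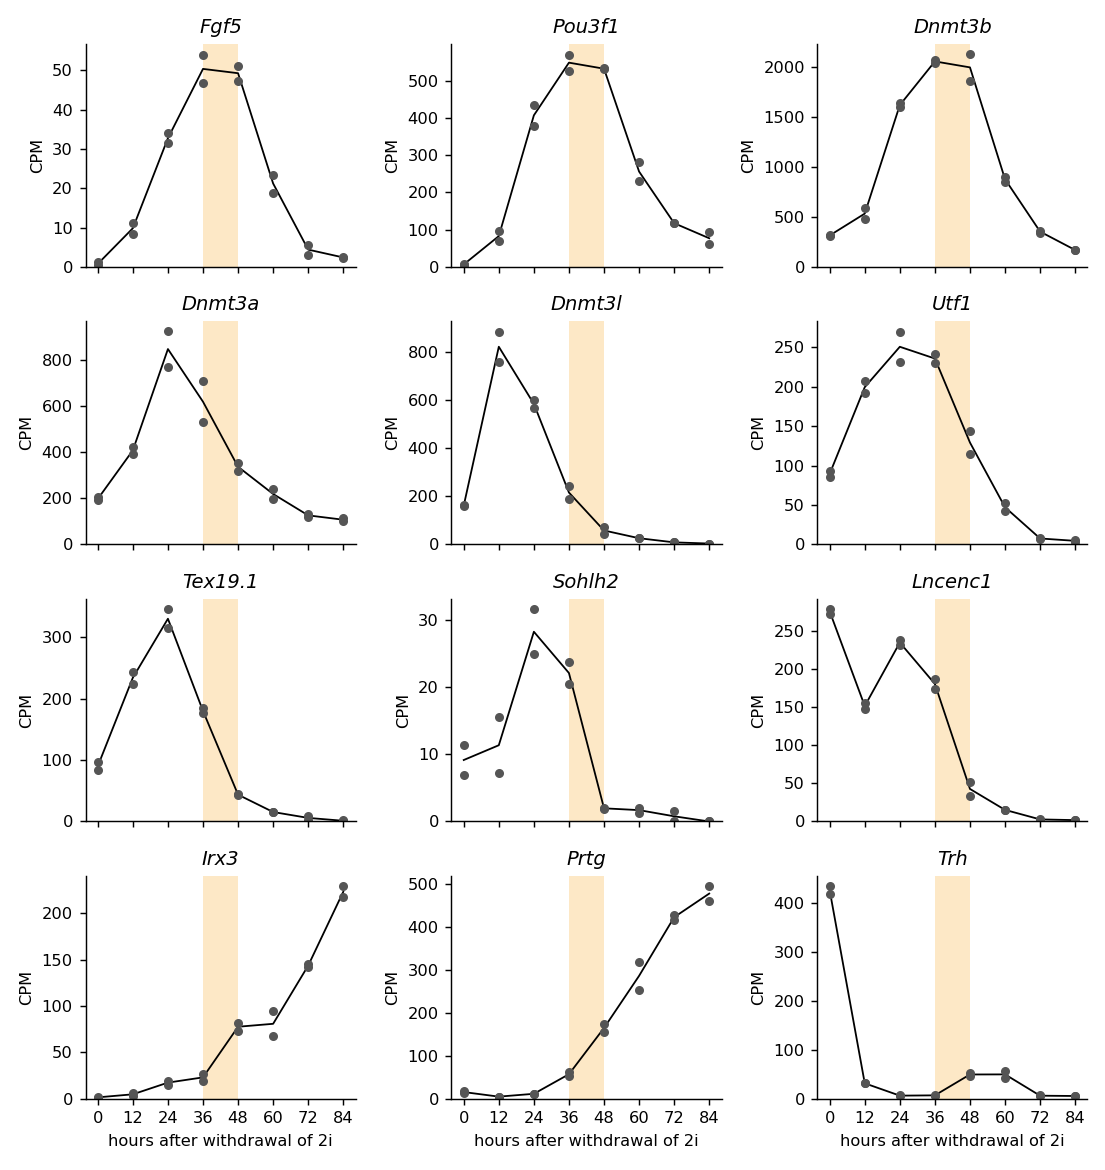
Levels of 12 genes over the 2i course: CPM (vertical axis, linear, a scale of its own in each panel) against hours after withdrawal (horizontal axis), with 1 point per library and a line through the means of 2. The shaded band is the step from 36 to 48 h: Fgf5, Pou3f1 and Dnmt3b are level across it, Dnmt3a, Dnmt3l, Utf1, Tex19.1, Sohlh2 and Lncenc1 fall across it, and Irx3, Prtg and Trh rise.

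Few naive genes passed the test in the step, and more were lower without passing it. Of 23 naive genes, all tested, 0 rose and 2 fell, beside 0.935% and 0.986% of all genes (median log2 fold change -0.61). By unadjusted p under 0.05, 2 were higher and 7 lower, beside 6.74% and 5.44% of all genes, and DESeq2 called none. Both 48 h libraries lay below both 36 h libraries in 11 of the 23 and above in 4, beside 24.1% and 24.4% of all genes. Their summed level was 602 and 604 CPM at 48 h, against 908 and 858 CPM at 36 h. Nr5a2, a nuclear receptor of the naive network, had 2.0 and 2.40 CPM at 48 h, against 10.1 and 8.29 CPM at 36 h (-2.03 ± 0.48, adjusted p = 0.015). Fgf4, the ligand that drives ERK signalling in these cells, had 32.01 and 39.8 CPM at 48 h, against 86.1 and 75.4 CPM at 36 h (-1.16 ± 0.26, adjusted p = 0.00992). The call on Nr5a2 was lost when any one of the 4 libraries was left out (adjusted p from 0.054 to 0.229). Fgf4 was not called without 48 h replicate 1, 48 h replicate 2 or 36 h replicate 1 (adjusted p = 0.167, 0.0747 and 0.162). Nanog, the homeobox factor of naive cells, was higher in both 48 h libraries, with 11.3 and 10.5 CPM at 48 h, against 5.35 and 4.52 CPM at 36 h, and did not pass the test (1.12 ± 0.45, adjusted p = 0.262). Of 11 general pluripotency genes, 0 rose and 1 fell (DESeq2 called 0; by unadjusted p under 0.05, 1 was higher and 4 lower). The called gene was Utf1, a chromatin-bound factor of pluripotent cells. Utf1 had 143 and 115 CPM at 48 h, against 241 and 231 CPM at 36 h (-0.87 ± 0.19, adjusted p = 0.00745). Utf1 was not called without 48 h replicate 2, 36 h replicate 1 or 36 h replicate 2 (adjusted p = 0.273, 0.111 and 0.0624). OCT4 and SOX2 themselves did not pass the test: Pou5f1 had a log2 fold change of -0.05 ± 0.37, adjusted p = 0.987, and Sox2 had 203 and 269.7 CPM at 48 h, against 169.9 and 163 CPM at 36 h (0.51 ± 0.19, adjusted p = 0.21).

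A run of genes known from the germline and testis was lower at 48 h, most of them with replicates far apart between the 2 times. Except Tex19.1 and the genes that the naming rule picks by size or by their difference from a 2iL step, the genes of this group were chosen after their values were seen, so they are described and not counted as a list. Tex19.1, which restrains retrotransposons in germ cells and placenta, had 42.7 and 44.5 CPM at 48 h, against 176 and 184 CPM at 36 h (-2.04 ± 0.25, adjusted p = 4.62e-06; highest adjusted p without 1 library 0.00141). Tdrd12, a tudor protein of the piRNA pathway, had 14 and 24.9 CPM at 48 h, against 66.5 and 81.4 CPM at 36 h (-1.88 ± 0.24, adjusted p = 6.83e-06). Hsf2bp, a meiotic recombination factor, had 28.01 and 37.4 CPM at 48 h, against 113 and 113 CPM at 36 h (-1.77 ± 0.22, adjusted p = 6.83e-06). In each of these 3 genes, as in every gene called lower, both 48 h libraries lay below both 36 h libraries. Sohlh2, a helix-loop-helix factor of early germ cells, had 2.0 and 1.92 CPM at 48 h, against 23.8 and 20.4 CPM at 36 h (-3.46 ± 0.52, adjusted p = 1.36e-04), the largest fall named by the rule. Morc1, needed to silence transposons in male germ cells, had 2.67 and 3.35 CPM at 48 h, against 21.4 and 21.9 CPM at 36 h (-2.79 ± 0.50, adjusted p = 0.00105). Rnf17, a tudor protein of male germ cells, had 13.3 and 11.02 CPM at 48 h, against 37.4 and 30.9 CPM at 36 h (-1.51 ± 0.31, adjusted p = 0.00525). Rnf17 was not called without 48 h replicate 2 or 36 h replicate 1 (adjusted p = 0.161 and 0.118). Trap1a, an X-linked tumour antigen gene with expression in testis and placenta, had 30.7 and 32.1 CPM at 48 h, against 149.7 and 146 CPM at 36 h (-2.23 ± 0.27, adjusted p = 4.62e-06).

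The testis paralogues of ribosomal protein genes belonged to the same group. Rpl10l had 30.7 and 32.1 CPM at 48 h, against 147 and 144 CPM at 36 h (-2.21 ± 0.34, adjusted p = 1.65e-04), and Rpl39l had 27.3 and 14.8 CPM at 48 h, against 96.8 and 84.4 CPM at 36 h (-2.14 ± 0.26, adjusted p = 4.62e-06). Rbmxl2, a testis RNA-binding protein, had 22.01 and 18.2 CPM at 48 h, against 56.4 and 77.7 CPM at 36 h (-1.74 ± 0.30, adjusted p = 5.34e-04). All 3 have close copies elsewhere in the genome, and how the counting treated reads that fit several copies is not given in the sources used here, so their levels are uncertain. Apart from Rnf17, the calls of the falling genes named so far in this group held without any one of the 4 libraries. That of Prss50, a testis protease described below, did not. The means were highest at 24 h for Tex19.1, Hsf2bp, Sohlh2, Rpl10l, Rpl39l and Rnf17, at 12 h for Morc1, Trap1a and Rbmxl2, and at 0 h for Tdrd12. In the germline marker list, 10 members were tested, 1 fell (Tex19.1) and 1 rose, Ddx4, the germ-cell RNA helicase. By unadjusted p under 0.05, 1 was higher and 3 lower, beside 6.74% and 5.44% of all genes, and the median log2 fold change was 0.06. The list summed to 123 and 133 CPM at 48 h, against 243 and 250.3 CPM at 36 h, and Tex19.1 made the larger part of the sum at 36 h. Ddx4 had 18.01 and 31.1 CPM at 48 h, against 4.16 and 12.1 CPM at 36 h (1.68 ± 0.38, adjusted p = 0.00997). Ddx4 was not called without 48 h replicate 2 or 36 h replicate 1 (adjusted p = 0.388 and 0.423). Dazl had 5.33 and 2.87 CPM at 48 h, against 13.1 and 4.52 CPM at 36 h, overlapping between the times, and Nanos3 had no count in any of the 4 libraries. Of the 116 falling genes 8 (6.90%) lay on the X chromosome, against 3.30% of the tested genes and 5.45% of the rising ones.

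Stretches of DNA upstream of the RefSeq start of some of these genes are shown because CpG dinucleotides are the sites of DNA methylation. Methylation was not measured in these libraries, and its part in the changes was not tested. Each stretch is 150 bases long and ends at the base before the RefSeq start (GRCm38.p6); CpG dinucleotides are in capitals, and the strand is that of the gene. Tex19.1 (ENSMUSG00000039329) lies on the plus strand at chr11:121145993-121146142, Dnmt3l (ENSMUSG00000000730) on the plus strand at chr10:78042137-78042286, Tdrd12 (ENSMUSG00000030491) on the minus strand at chr7:35537745-35537894 and Rpl10l (ENSMUSG00000060499) on the minus strand at chr12:66284402-66284551. Also shown are 2 rising genes, Irx3 (ENSMUSG00000031734) on the minus strand at chr8:91801655-91801804 and Trh (ENSMUSG00000005892) on the minus strand at chr6:92244651-92244800. The RefSeq start lies 413 bases downstream of the GENCODE start for Irx3 and 340 bases downstream for Dnmt3l, so these 2 stretches lie inside the GENCODE gene. For the other 4 genes the starts differ by at most 1 base. All 6 were picked after their fold changes were seen.
Tex19.1: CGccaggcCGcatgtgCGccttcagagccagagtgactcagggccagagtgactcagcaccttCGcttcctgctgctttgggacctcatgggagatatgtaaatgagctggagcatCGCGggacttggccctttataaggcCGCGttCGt
Dnmt3l: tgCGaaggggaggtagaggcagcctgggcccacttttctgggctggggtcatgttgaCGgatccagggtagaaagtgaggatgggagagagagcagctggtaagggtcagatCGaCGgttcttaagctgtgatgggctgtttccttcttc
Tdrd12: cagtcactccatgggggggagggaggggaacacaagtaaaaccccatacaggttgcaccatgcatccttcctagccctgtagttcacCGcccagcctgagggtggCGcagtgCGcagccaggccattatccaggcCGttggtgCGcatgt
Rpl10l: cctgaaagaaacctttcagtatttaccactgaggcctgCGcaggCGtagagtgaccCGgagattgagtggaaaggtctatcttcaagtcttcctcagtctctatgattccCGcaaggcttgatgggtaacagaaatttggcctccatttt
Irx3: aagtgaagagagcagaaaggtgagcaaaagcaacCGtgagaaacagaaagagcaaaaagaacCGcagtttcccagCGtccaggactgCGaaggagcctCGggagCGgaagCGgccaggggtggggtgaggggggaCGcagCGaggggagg
Trh: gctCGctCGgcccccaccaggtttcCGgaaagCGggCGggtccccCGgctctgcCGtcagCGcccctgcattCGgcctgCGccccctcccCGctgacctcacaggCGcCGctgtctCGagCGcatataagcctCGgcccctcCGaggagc

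In windows of 300 bases (250 before to 50 after the start), CpG counts were 16 for Tex19.1, 6 for Dnmt3l, 9 for Tdrd12 and 13 for Rpl10l, and 14 for Irx3 and 28 for Trh. These counts describe the 6 genes alone. A window was matched for 72 of the 116 falling genes, 76 of the 110 rising genes and 8370 of the 11761 tested genes. With fewer than 80% matched in each, a comparison of CpG content between the sets, or of single genes with all tested genes, is void and is not given.

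Long noncoding RNAs were among the falling genes too. Lncenc1, a stem-cell RNA that sustains glycolysis in naive cells, had 51.3 and 34.01 CPM at 48 h, against 187 and 174 CPM at 36 h (-2.10 ± 0.25, adjusted p = 4.62e-06). Of the Platr transcripts, which were catalogued as pluripotency-associated RNAs, Platr4 had 6.0 and 3.83 CPM at 48 h, against 17.2 and 30.2 CPM at 36 h (-2.27 ± 0.39, adjusted p = 5.34e-04). Platr4 was not called without 48 h replicate 2 (adjusted p = 0.0563). Halr1, an RNA transcribed next to the Hoxa cluster, had 7.34 and 6.23 CPM at 48 h, against 39.8 and 20.4 CPM at 36 h (-2.18 ± 0.47, adjusted p = 0.00706). Halr1 was not called without 48 h replicate 1, 48 h replicate 2 or 36 h replicate 1 (adjusted p = 0.0609, 0.179 and 0.336). The antisense RNA 4930566F21Rik had 8.0 and 12.5 CPM at 48 h, against 53.5 and 53.5 CPM at 36 h (-2.34 ± 0.37, adjusted p = 2.07e-04); the strand setting of the counting is not stated, so its reads cannot be told from those of a gene on the other strand. Platr20 (chosen after its values were seen) had no count at 48 h and 16 counts at 36 h, which makes it at least 6.36-fold lower against a floor of 3 counts over the group, and its call was lost without 48 h replicate 1, 48 h replicate 2 or 36 h replicate 1 (adjusted p = 0.0774, 0.175 and 0.0898).

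The other large falls had several known roles, some of them in muscle and some in the germline or testis. Capn3, a calcium-dependent protease best known from muscle, had 4.0 and 1.44 CPM at 48 h, against 26.1 and 27.1 CPM at 36 h (-3.36 ± 0.53, adjusted p = 2.20e-04). Ryr3, a calcium channel of internal stores, had 3.33 and 9.58 CPM at 48 h, against 36.2 and 35.4 CPM at 36 h (-2.38 ± 0.36, adjusted p = 1.36e-04). Dusp27, a muscle pseudophosphatase, had 16.7 and 11.5 CPM at 48 h, against 60.6 and 73.9 CPM at 36 h (-2.27 ± 0.32, adjusted p = 3.62e-05). Each of these 3 was called also without any one library. Gpa33 and Slc28a1, a surface antigen of gut epithelium and a nucleoside transporter, fell by 2.38 and 2.26 on the log2 scale; Gpa33 was not called without 48 h replicate 2 (adjusted p = 0.207) and Slc28a1 not without 48 h replicate 2 or 36 h replicate 1 (adjusted p = 0.255 and 0.234). Prss50, a testis protease, and Gtsf1l, a relative of a piRNA factor, complete the 15 largest falls, with log2 fold changes of -2.23 ± 0.45, adjusted p = 0.00347, and -2.18 ± 0.34, adjusted p = 1.65e-04. Prss50 was not called without 48 h replicate 2 or 36 h replicate 1 (adjusted p = 0.1 and 0.0865). Among abundant genes, the metallothionein Mt2 had 633 and 718 CPM at 48 h, against 1910.5 and 1782 CPM at 36 h (-1.45 ± 0.29, adjusted p = 0.00358), and its neighbour Mt1 had 275 and 242 CPM at 48 h, against 586 and 538 CPM at 36 h (-1.12 ± 0.21, adjusted p = 0.00187), though reads of such close paralogues may be split uncertainly. Both were chosen after their values were seen; Mt2 was not called without 48 h replicate 1, 48 h replicate 2 or 36 h replicate 1 (adjusted p = 0.09, 0.058 and 0.052), and Mt1 not without 48 h replicate 2 (adjusted p = 0.0904).

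**Figure D3:**
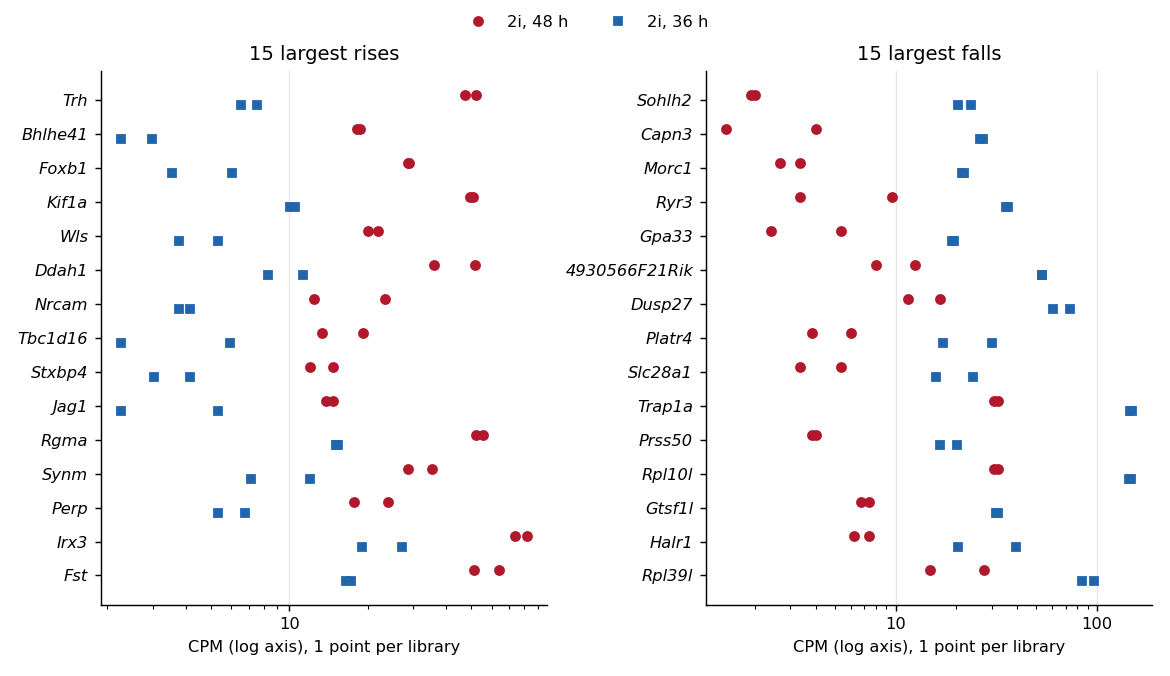
Level in each library (CPM, log axis) of the 15 genes with the largest called rises (left) and the 15 with the largest called falls (right), with 48 h as red circles and 36 h as blue squares, 2 points each. In every one of the 30 genes the 2 times are apart, which was a condition for choosing them.

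Several genes of the neural plate rose by 48 h. In an early neural list of 22 genes, 16 were tested, 3 rose and 0 fell. The median log2 fold change was 0.88, and DESeq2 called none of the 16. By unadjusted p under 0.05, 9 of the 16 were higher and 0 lower, beside 6.74% and 5.44% of all genes. In 12 of the 16 both 48 h libraries lay above both 36 h libraries, beside 24.4% of all genes. The summed level was 1256 and 1329 CPM at 48 h, against 907 and 862 CPM at 36 h. Irx3, an Iroquois factor of the neural plate, had 73.4 and 81.9 CPM at 48 h, against 19.01 and 27.1 CPM at 36 h (1.77 ± 0.27, adjusted p = 1.65e-04; highest adjusted p without 1 library 0.0308). Fabp7, a lipid-binding protein of radial glia, had 17 counts at 48 h and 0 at 36 h, at least 4.75-fold higher against a floor of 3 counts over the group (adjusted p = 0.0107). Zic1, a zinc finger factor of the neural plate border, had 16 counts at 48 h and 0 at 36 h, at least 4.47-fold higher (adjusted p = 0.0392). The calls on both rest on few counts. Fabp7 was not called without 48 h replicate 2, 36 h replicate 1 or 36 h replicate 2 (adjusted p = 0.119, 0.183 and 0.129), and Zic1 not when any one of the 4 libraries was left out (adjusted p from 0.132 to 0.339). Sox1, the first marker confined to neural progenitors, had 12.7 and 11.5 CPM at 48 h, against 3.56 and 4.52 CPM at 36 h and just missed the threshold (1.57 ± 0.44, adjusted p = 0.0548), and Pax6 had 9.34 and 11.02 CPM at 48 h, against 5.94 and 7.54 CPM at 36 h (0.62 ± 0.49, adjusted p = 0.68). Sox3, a progenitor factor already present in the epiblast, had 149 and 162 CPM at 48 h, against 148 and 159.8 CPM at 36 h and overlapped between the times.

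Genes outside that list with known neural roles stood among the largest rises. Foxb1, a forkhead factor of the neural tube, had 28.7 and 28.7 CPM at 48 h, against 3.56 and 6.03 CPM at 36 h (2.6 ± 0.39, adjusted p = 1.36e-04). Kif1a, a kinesin that carries synaptic vesicle precursors, had 49.3 and 50.8 CPM at 48 h, against 10.1 and 10.6 CPM at 36 h (2.27 ± 0.36, adjusted p = 2.15e-04). Rgma, a guidance molecule and BMP co-receptor, had 52.01 and 55.6 CPM at 48 h, against 15.4 and 15.1 CPM at 36 h (1.81 ± 0.27, adjusted p = 1.21e-04). All 3 were called in each fit with 1 library left out. Nrcam, a neuronal adhesion protein, had 23.3 and 12.5 CPM at 48 h, against 4.16 and 3.77 CPM at 36 h (2.11 ± 0.44, adjusted p = 0.00547). Nrcam was not called without 48 h replicate 1, 36 h replicate 1 or 36 h replicate 2 (adjusted p = 0.152, 0.102 and 0.0873). Prtg (protogenin), a surface receptor of the early neural tube that was chosen after its values were seen, was among the most abundant rising genes, with 174 and 156 CPM at 48 h, against 62.4 and 52.02 CPM at 36 h (1.52 ± 0.23, adjusted p = 1.53e-04). Its mean went on to 286, 423 and 478 CPM at 60, 72 and 84 h.

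Of 21 genes of neuronal differentiation, 16 were tested, 3 rose and 0 fell (median log2 fold change 0.78; DESeq2 called 2 higher). In 14 of the 16 both 48 h libraries lay above both 36 h libraries, beside 24.4% of all genes. Stmn4, a neural stathmin that binds tubulin, had 21.3 and 9.58 CPM at 48 h, against 1.78 and 1.51 CPM at 36 h (3.12 ± 0.54, adjusted p = 0.00103) and was called in each fit with 1 library left out. Map2, the microtubule protein of dendrites, had 44.7 and 43.1 CPM at 48 h, against 11.9 and 17.3 CPM at 36 h (1.60 ± 0.33, adjusted p = 0.00455). Map2 was not called without 36 h replicate 1 (adjusted p = 0.185). Elavl3, an RNA-binding protein of neurons, had 25.3 and 35.9 CPM at 48 h, against 13.7 and 13.6 CPM at 36 h (1.18 ± 0.27, adjusted p = 0.0125). Elavl3 was not called without 48 h replicate 2, 36 h replicate 1 or 36 h replicate 2 (adjusted p = 0.384, 0.173 and 0.145). Map2 and Elavl3 had their highest mean at 48 h and Stmn4 at 60 h, and at 84 h their means were 19.4, 17.7 and 8.96 CPM. Tubb3, the neuronal tubulin, had 126 and 156 CPM at 48 h, against 104 and 91.97 CPM at 36 h and did not pass the test (0.53 ± 0.30, adjusted p = 0.497).

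Trh, the precursor of thyrotropin-releasing hormone, had the largest rise named by the rule. It had 52.01 and 47.4 CPM at 48 h, against 6.53 and 7.54 CPM at 36 h, a log2 fold change of 2.82 ± 0.33, adjusted p = 4.62e-06, and was called in each fit with 1 library left out (highest adjusted p 0.00105). The gene stood high before withdrawal and came back for a limited time: over the 8 times from 0 to 84 h its mean was 426, 31.7, 6.43, 7.04, 49.7, 49.9, 6.33 and 5.73 CPM. After 12 h the mean was above 10 CPM at 48 and 60 h and below it at 24, 36, 72 and 84 h. Trh is on the definitive endoderm marker list, whose 6 tested members summed to 62.7 and 60.8 CPM at 48 h, against 16.6 and 9.80 CPM at 36 h. Trh made the larger part of the sum at 48 h and alone was called. By unadjusted p under 0.05, 2 of the 6 were higher and 0 lower, beside 6.74% and 5.44% of all genes. The median log2 fold change was 0.74. In 3 of the 6, Trh among them, both 48 h libraries lay above both 36 h libraries, beside 24.4% of all genes. Gsc, Cxcr4 and Spink1 were each under 2 CPM in all 4 libraries, Cer1 and Foxa1 had no count, and Foxa2 and Hhex were tested and not called. The second largest rise named by the rule, Bhlhe41, a repressor of the circadian clock, had 18.7 and 18.2 CPM at 48 h, against 2.97 and 2.26 CPM at 36 h (2.76 ± 0.53, adjusted p = 0.00252). Bhlhe41 was not called without 36 h replicate 1 or 36 h replicate 2 (adjusted p = 0.0607 and 0.054).

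The other rising genes named here have no shared role. Ddah1, an enzyme that degrades an inhibitor of nitric oxide synthase, had 36.01 and 51.7 CPM at 48 h, against 11.3 and 8.29 CPM at 36 h (2.15 ± 0.32, adjusted p = 1.31e-04), and was called in each fit with 1 library left out. Lpar4, an X-linked receptor for lysophosphatidic acid chosen after its values were seen, had 187 and 162 CPM at 48 h, against 90.9 and 89.7 CPM at 36 h (0.95 ± 0.16, adjusted p = 5.54e-04). Its rise is below the median of the called rises, and its call also held in each of these fits. Synm, an intermediate filament protein, had 28.7 and 35.4 CPM at 48 h, against 7.13 and 12.1 CPM at 36 h (1.78 ± 0.37, adjusted p = 0.00525). Synm was not called without 48 h replicate 2 or 36 h replicate 1 (adjusted p = 0.12 and 0.217). Tbc1d16, a regulator of RAB GTPases, had 13.3 and 19.2 CPM at 48 h, against 5.94 and 2.26 CPM at 36 h (1.93 ± 0.44, adjusted p = 0.0105). Tbc1d16 was not called without 48 h replicate 2 or 36 h replicate 2 (adjusted p = 0.273 and 0.282). Stxbp4, a syntaxin-binding protein, had 14.7 and 11.98 CPM at 48 h, against 4.16 and 3.02 CPM at 36 h (1.84 ± 0.46, adjusted p = 0.0237). The call on Stxbp4 was lost when any one of the 4 libraries was left out (adjusted p from 0.0999 to 0.271).

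Fst (follistatin), the secreted inhibitor of activin, had 64.02 and 51.3 CPM at 48 h, against 17.2 and 16.6 CPM at 36 h (1.76 ± 0.27, adjusted p = 1.65e-04; highest adjusted p without 1 library 0.0124). Of 15 Nodal pathway genes, 13 were tested, 2 rose and 0 fell (median log2 fold change 0.27; DESeq2 called none). Lefty1, the secreted Nodal inhibitor, had 27 counts at 48 h and 1 count at 36 h. That gives a ratio of 22.7 with an exact 95% interval from 3.73 to 928, which covers counting error only (adjusted p = 0.00992), and the call was lost without 48 h replicate 1 or 36 h replicate 1 (adjusted p = 0.0988 and 0.261). Acvr2b, a type II receptor, had 135 and 157 CPM at 48 h, against 102 and 76.1 CPM at 36 h (0.71 ± 0.19, adjusted p = 0.0347). The call on Acvr2b was lost when any one of the 4 libraries was left out (adjusted p from 0.0714 to 0.518). The receptors Acvr1b and Acvr2a overlapped between the times. The ligand Nodal had 19.3 and 10.5 CPM at 48 h, against 10.7 and 13.6 CPM at 36 h, overlapping between the times. Among 11 tested BMP pathway and Id genes, 0 passed the test by edgeR or DESeq2 (median log2 fold change 0.57). By unadjusted p under 0.05, 5 of the 11 were higher and 0 lower, beside 6.74% and 5.44% of all genes. Both 48 h libraries lay above both 36 h libraries in 9 of the 11 and below in 0, beside 24.4% and 24.1% of all genes.

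Among 16 genes of the Notch pathway, 15 were tested, 2 rose and 0 fell (median log2 fold change 1.27; DESeq2 called none). By unadjusted p under 0.05, 6 of the 15 were higher and 1 lower, beside 6.74% and 5.44% of all genes. Both 48 h libraries lay above both 36 h libraries in 9 of the 15 and below in 2, beside 24.4% and 24.1% of all genes. The summed level was 254 and 251 CPM at 48 h, against 239 and 216 CPM at 36 h. Jag1, a Notch ligand, had 14.7 and 13.9 CPM at 48 h, against 5.35 and 2.26 CPM at 36 h (1.83 ± 0.42, adjusted p = 0.0117). Jag1 was not called without 48 h replicate 1, 48 h replicate 2 or 36 h replicate 2 (adjusted p = 0.0711, 0.0961 and 0.279). Hes1, the main effector repressor, had 22.01 and 20.6 CPM at 48 h, against 5.35 and 9.05 CPM at 36 h (1.59 ± 0.44, adjusted p = 0.0497). Hes1 was not called when any one of the 4 libraries was left out (adjusted p from 0.136 to 0.511). The delta ligand Dll1 went the other way without passing the test, with 9.34 and 7.66 CPM at 48 h, against 15.4 and 12.1 CPM at 36 h (-0.72 ± 0.40, adjusted p = 0.492). Of 18 Eph receptors and ephrins, 15 were tested (median log2 fold change 0.93). Without adjustment, p was under 0.05 for 6 higher and 0 lower members, beside 6.74% and 5.44% of all genes. Both 48 h libraries lay above both 36 h libraries in 10 of the 15 and below in 0, beside 24.4% and 24.1%. By the adjusted test 1 rose and 0 fell. The riser was Epha4, a receptor of boundary formation, with 38.01 and 36.4 CPM at 48 h, against 11.3 and 12.8 CPM at 36 h (1.63 ± 0.31, adjusted p = 0.00228). Epha4 was not called without 36 h replicate 1 (adjusted p = 0.095). In 14 tested genes of Wnt ligands, receptors and antagonists 0 passed the test by edgeR or DESeq2, and by unadjusted p under 0.05, 3 were higher and 1 lower. Wls, the carrier that all Wnt ligands need for secretion, rose outside that list, with 22.01 and 20.1 CPM at 48 h, against 5.35 and 3.77 CPM at 36 h (2.16 ± 0.45, adjusted p = 0.00521). Wls was not called without 36 h replicate 1 or 36 h replicate 2 (adjusted p = 0.0731 and 0.117).

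Of 20 genes of the primitive streak and mesoderm 11 were tested, 1 rose and 0 fell (median log2 fold change 0.68), and the tested genes summed to 38.01 and 34.5 CPM at 48 h, against 16.6 and 18.1 CPM at 36 h. The riser, Nkx1-2, a homeobox gene of the caudal epiblast, had 12.7 and 13.4 CPM at 48 h, against 4.16 and 3.02 CPM at 36 h (1.82 ± 0.49, adjusted p = 0.0416). The call on Nkx1-2 was lost when any one of the 4 libraries was left out (adjusted p from 0.132 to 0.343). T (brachyury) was under 1 CPM in all 4 libraries. Of 11 tested Hox genes 0 passed the test, by edgeR, by DESeq2 or by unadjusted p under 0.05, and they summed to 8.0 and 6.23 CPM at 48 h, against 3.56 and 9.80 CPM at 36 h. Among markers of other cell types, 1 of 7 tested primitive endoderm genes rose, the collagen Col4a1, with 26.7 and 26.8 CPM at 48 h, against 10.7 and 14.3 CPM at 36 h (1.11 ± 0.31, adjusted p = 0.049). The call on Col4a1 was lost when any one of the 4 libraries was left out (adjusted p from 0.142 to 0.475). By unadjusted p under 0.05, 3 of the 7 were higher and 0 lower, beside 6.74% and 5.44% of all genes (median log2 fold change 0.84). The list summed to 211 and 183 CPM at 48 h, against 147 and 132 CPM at 36 h, of which Lamb1 and Serpinh1 made the larger part. Its members that were too low to be tested had few counts, mostly at 48 h: Amn had 8 at 48 h and 0 at 36 h, Pdgfra 5 and 0, Gata4 3 and 0, Cubn 3 and 1, Hnf4a 2 and 0, Gata6 2 and 1, Sox17 1 and 0, Srgn 1 and 0, and Sox7 had none. Of 11 tested trophectoderm genes 1 rose, Tfap2c, which is also a naive-cell factor, with 10.7 and 15.3 CPM at 48 h, against 4.16 and 3.02 CPM at 36 h (1.84 ± 0.48, adjusted p = 0.0343). Tfap2c was not called without 48 h replicate 2, 36 h replicate 1 or 36 h replicate 2 (adjusted p = 0.407, 0.197 and 0.303). The trophectoderm list summed to 48.01 and 60.4 CPM at 48 h, against 47.5 and 36.2 CPM at 36 h. Surface ectoderm, neural crest and fibroblast lists held 0 genes called by edgeR or DESeq2 of 7, 8 and 6 tested (by unadjusted p under 0.05, 1, 1 and 1 higher and 0, 2 and 1 lower) and summed to at most 318, 70.9 and 22.99 CPM in any of the 4 libraries. Sox10 and Pdgfrb had no count. The part of such cells in the rises named above was not tested.

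Few metabolic and proliferation genes passed the test, while several of their lists leaned to one side without calls. Ccnd2 (cyclin D2), a G1 cyclin and let-7 target, had 76.7 and 72.3 CPM at 48 h, against 36.2 and 28.6 CPM at 36 h (1.19 ± 0.22, adjusted p = 0.00174) and was the 1 called gene of 14 tested G1 genes; it was not called without 36 h replicate 2 (adjusted p = 0.0873). Its mean was 280.01 CPM at 60 h and 1006 CPM at 84 h. Lists of 20 S phase genes and 20 mitosis genes had 0 called, by edgeR, by DESeq2 and by unadjusted p under 0.05, with median log2 fold changes of -0.14 and -0.13. In 11 and 8 of them both 48 h libraries lay below both 36 h libraries, and in 0 and 2 above, beside 24.1% and 24.4% of all genes. Of 20 glycolysis genes 1 rose and 1 fell. Slc2a3 (GLUT3), a neuronal and stem-cell glucose transporter, had 103 and 87.2 CPM at 48 h, against 43.96 and 36.9 CPM at 36 h (1.22 ± 0.24, adjusted p = 0.00293), and Slc16a3 (MCT4), a lactate exporter, had 350.1 and 365 CPM at 48 h, against 645 and 553 CPM at 36 h (-0.75 ± 0.19, adjusted p = 0.0293). Slc2a3 was not called without 48 h replicate 1 or 36 h replicate 2 (adjusted p = 0.0609 and 0.111), and Slc16a3 not when any one of the 4 libraries was left out (adjusted p from 0.0873 to 0.339). Ddit3 (CHOP), a transcription factor of the integrated stress response, had 123 and 108 CPM at 48 h, against 55.2 and 35.4 CPM at 36 h (1.33 ± 0.26, adjusted p = 0.00318) and was the 1 called gene among 20 of the ATF4 response; it was not called without 36 h replicate 2 (adjusted p = 0.155). Of 18 tested p53 targets 1 rose, Perp, a membrane protein of cell junctions, with 24.01 and 17.7 CPM at 48 h, against 5.35 and 6.78 CPM at 36 h (1.77 ± 0.34, adjusted p = 0.00216). The p53 list had a median log2 fold change of 0.43. By unadjusted p under 0.05, 8 of its 18 tested members were higher and 0 lower, beside 6.74% and 5.44% of all genes. Both 48 h libraries lay above both 36 h libraries in 12 of the 18 and below in 2, beside 24.4% and 24.1% of all genes. Perp was not called without 36 h replicate 1 (adjusted p = 0.105). Lists of oxidative phosphorylation (20 tested), cholesterol synthesis (21) and Polycomb complexes (17) had 0 called by edgeR or DESeq2, with 1, 2 and 1 lower by unadjusted p under 0.05 and median log2 fold changes of -0.14, -0.18 and -0.13. In 10, 12 and 9 of them both 48 h libraries lay below both 36 h libraries, and in 0, 1 and 2 above.

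Of the other lists, the imprinted genes (19 tested) had 1 rise and 0 falls, by Magel2, a paternally expressed ubiquitin ligase regulator. It had 37 counts at 48 h and 3 counts at 36 h, a ratio of 10.3 with an exact 95% interval from 3.28 to 52.5, and was not called without 48 h replicate 2 or 36 h replicate 2 (adjusted p = 0.0959 and 0.17). Retinoic acid genes (6 tested), ERK targets (14), beta-catenin targets (13), mesenchymal genes (10) and mitochondrially encoded genes (11) had 0 called by edgeR or DESeq2. By unadjusted p under 0.05 these 5 lists had 1, 0, 2, 2 and 0 members higher and 1, 1, 0, 1 and 0 lower. A list of 7 RNA quality genes had 0 called by edgeR, by DESeq2 and by unadjusted p under 0.05, and its median log2 fold change was -0.03. The FGF, epithelial, extracellular matrix and LIN28 lists had 1 called member each, namely Fgf4, Grhl2, Col4a1 and Ccnd2, which are described above.

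The calls were then followed over the 2i course. Of the 116 falling genes, 12 had their highest mean at 0 h, 29 at 12 h, 65 at 24 h (56%, beside 12.4% of all tested genes) and 10 at 36 h. Of the 110 rising genes, 59 had the highest mean at 84 h (53.6%, beside 18.8%), 19 at 72 h, 13 at 60 h, 11 at 48 h and 8 at 0 h. The way the genes were chosen fixes part of this, since no rising gene can be highest at 36 h and no falling gene at 48 h. In libraries that the step does not use, 60 to 84 h was compared with 12 to 24 h. There 104 of the 110 rising genes were called higher (94.5%, beside 26.7% of all tested genes) and 111 of the 116 falling genes lower (95.7%, beside 25.2%). By sign alone, 3 of the rising genes were lower late than early and 2 of the falling genes higher. Of these, 1 riser was called lower, Dsg2, a desmosomal cadherin, and 1 faller was called higher, Nudt2, a hydrolase of dinucleoside polyphosphates. Dsg2 had means of 72.2, 32.2, 11.3, 20.2, 43.6, 26.3, 10.2 and 9.74 CPM from 0 to 84 h, highest before withdrawal, and Nudt2 had 12.1, 4.86, 15.2, 23.7, 9.78, 13.6, 14.2 and 11.7 CPM. Trh was not called in this comparison (-0.22 ± 0.25, adjusted p = 0.46).

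**Figure D4:**
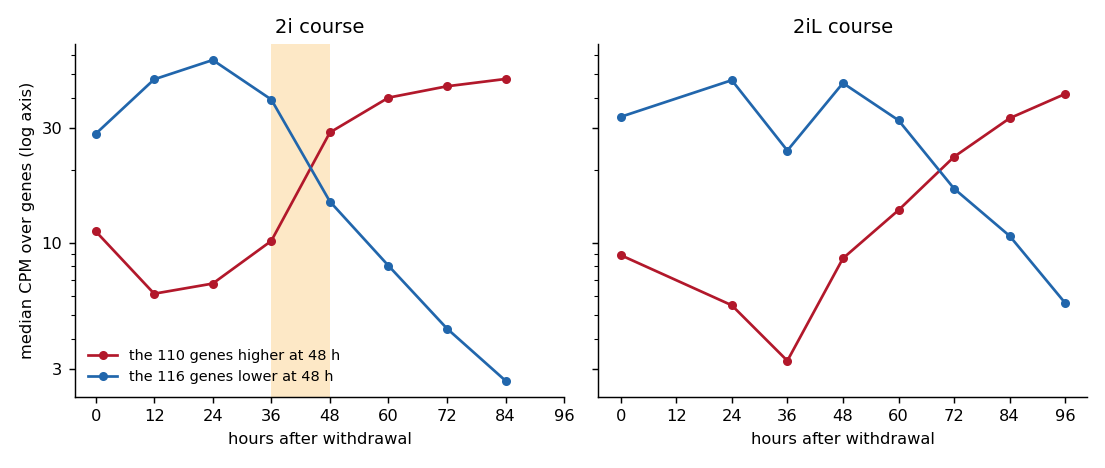
Median over the 110 genes called higher (red) and the 116 called lower (blue) at 48 h, of each gene's mean CPM (log axis), against hours after withdrawal, in the 2i course (left, step shaded) and in the 2iL course (right). The lines cross between 36 and 48 h in the 2i course, where the genes were chosen, and between 60 and 72 h in the 2iL course; the dip at 36 h in 2iL includes a library of 7298 counts.

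The same genes were read in the 2iL course, which shares no library with the step. In 2iL from 60 to 72 h, 33 of the 110 genes were called higher (30%, beside 0.842% of all tested genes) and 52 of the 116 were called lower (44.8%, beside 1.01%), and 0 were called in the opposite direction. The sign was the same for 103 of 110 and 110 of 116. The changes were smaller, with median log2 fold changes of 0.76 and -0.89, against 1.54 and -1.67 in the 2i step. The genes were chosen by their change in the 2i step, so these sizes are not compared on equal terms. From 60 to 72 h in 2iL Stmn4 rose by 3.36 on the log2 scale, Prtg by 1.42 and Irx3 by 1.24, while Dnmt3l fell by 1.61, Tex19.1 by 0.99 and Lncenc1 by 1.55. At the same clock time, 2iL from 36 to 48 h, 6 of the 110 were called higher (5.45%, beside 0.527%) and 1 lower, and 2 of the 116 were called lower (1.72%, beside 0.442%) and 1 higher. The 36 h group of that step holds the library of 7298 counts, in which 1 count is 62.4 CPM.

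**Figure D5:**
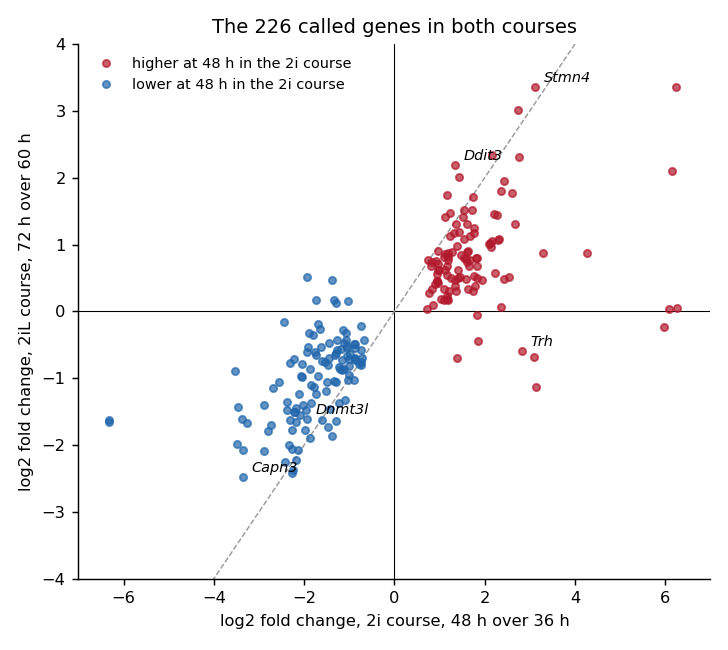
Log2 fold change of 72 h over 60 h in the 2iL course (vertical axis) against that of 48 h over 36 h in the 2i course (horizontal axis) for the 226 called genes, red for the 110 higher at 48 h and blue for the 116 lower, with a dashed line of equal change. The points lie mainly in the lower left and upper right, and Trh lies below 0 on the vertical axis.

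The difference of the 2 steps was tested gene by gene. Against 2iL from 60 to 72 h, 1 of 11761 genes differed (0.0085%), Trh. DESeq2 also called 1 gene higher and 0 lower, and by unadjusted p under 0.05, 232 genes were higher and 200 lower. By sign alone, the value was higher in the 2i step for 101 of the 110 rising genes, beside 49.9% of all genes. It was lower for 100 of the 116 falling genes, beside 50%. These genes were chosen by the 2i step, which fixes part of this. In 2iL Trh had 38.5 and 49.3 CPM at 72 h, against 60.2 and 72.9 CPM at 60 h, a log2 fold change of -0.60. The 2i step exceeded it by 3.41 ± 0.41 (adjusted p = 1.36e-05), and between 3.24 and 3.59 under every alternative run. In 2iL the mean of Trh was 204, 80.7, 58.3, 66.1, 66.5, 43.9, 34.4 and 10.8 CPM from 0 to 96 h, with no return after a low level. Against 2iL from 36 to 48 h, 119 genes differed (1.01%), 36 with a higher and 83 with a lower value in the 2i step, and 36 and 81 did so without the library of 7298 counts. Without 2iL 36 h replicate 1, which leaves the library of 7298 counts alone in its group, 5 were higher and 169 lower. Other single libraries moved these counts too. Leaving out 2i 48 h replicate 1 gave 16 and 35, leaving out 2i 48 h replicate 2 gave 7 and 16, leaving out 2i 36 h replicate 1 gave 8 and 13, and leaving out 2i 36 h replicate 2 gave 10 and 32. Leaving out 2iL 48 h replicate 2 gave 58 higher, and leaving out 2iL 48 h replicate 1 gave 40 lower. Dnmt3a is an example: in 2iL it had 759 and 782 CPM at 48 h, against 378 and 125 CPM at 36 h, the 125 CPM from the library of 7298 counts. That rise is opposite to its fall in 2i (difference -1.99 ± 0.29, adjusted p = 3.62e-04). From 60 to 72 h in 2iL Dnmt3a fell too, by 0.72 on the log2 scale (adjusted p = 0.035). The 2i step did not differ from that fall by the test (-0.16 ± 0.26).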

How the data were processed

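RNA of E14 mouse embryonic stem cells was counted in 32 libraries, 2 for each of 8 times in the 2i and 2iL courses. Per the submitters' processing notes the authors used bcl2fastq, STAR 2.6.0a, HTSeq and mm10; per the labels' protocols the libraries are 3′ digital mRNA libraries. The strand setting is not given in the sources used here. The authors deposited raw counts per gene and a CPM table, which differs from CPM recomputed from the counts by at most 4.7e-10 CPM. GENCODE M21 names supplied 31011 of 31053 genes. Rows that name no gene (23.4% to 55.4% of a library) were left out.

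Counts were fitted with edgeR 4.0.16 in R 4.3.3 (filterByExpr, TMM, quasi-likelihood test, Benjamini-Hochberg adjustment over 11761 genes) with a mean for each of 16 groups, so all 32 libraries share the estimate of spread with 16 residual degrees of freedom. CPM in the text are recomputed from the counts with TMM factors. The steps were contrasts of these means, and differences between steps were interaction contrasts. DESeq2 1.42.0, RLE scaling, other filters, other sets of libraries, a replicate block, a fold of at least 1.5 by glmTreat and leaving out each library were alternatives. The fit was tested on simulated data, counts of 11583 genes of which some had known changes, and gave 0 calls of the wrong sign for this step. The counts were drawn with the fitted means and spread of the same model, so a wrong sign was unlikely from the start. The outcome checks the running of the fit alone. Intervals on ratios of counts are exact, at 95%.

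The members of 41 gene lists and the tests were chosen with earlier results of these data known. Genes named are list members, the 15 largest rises and 15 largest falls among called genes with a mean log2 CPM of at least 3 and no overlap between the times, and the 5 smallest p in each direction of each difference of steps; others are said to be chosen after their values were seen. The replicate numbers do not pair the libraries (correlation of deviations 0.0536 over 8349 genes).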

Additional observations from a re-analysis of the deposited data

Results flagged for a closer look

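The following 11 values of the 2i step differed from a 2iL step by the interaction test. From 2iL 60 to 72 h, Trh differed by 3.41 ± 0.41 on the log2 scale (adjusted p = 1.36e-05), with both 2i 48 h libraries above and both 2iL 72 h libraries below the libraries of the earlier time. From 2iL 36 to 48 h, Trh differed by 2.54 ± 0.44 (adjusted p = 0.00231).

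Of 4 other genes the log2 change was higher in the 2i step than in 2iL from 36 to 48 h: Ddah1 by 3.06 ± 0.48 (adjusted p = 9.63e-04), Slc2a3 by 2.82 ± 0.37 (adjusted p = 1.26e-04), Epha4 by 2.47 ± 0.41 (adjusted p = 0.00177) and Sfrp1, a secreted Wnt antagonist, by 2.45 ± 0.45 (adjusted p = 0.00384). Sfrp1 was not called in the 2i step itself (0.81 ± 0.32, adjusted p = 0.233).

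Lower values in the 2i step were found for Spn, a leukocyte surface sialoglycoprotein, with a difference of -3.63 ± 0.60 (adjusted p = 0.00168), for Lncenc1 with -2.56 ± 0.36 (adjusted p = 2.42e-04), for Tdrd12 with -2.10 ± 0.34 (adjusted p = 0.00157), for Dnmt3a with -1.99 ± 0.29 (adjusted p = 3.62e-04) and for Hsf2bp with -1.81 ± 0.32 (adjusted p = 0.00271). The 36 h group in 2iL holds 1 library of 2632988 counts and 1 of 7298 counts. Without the larger one, 2iL 36 h replicate 1, the 36 h group of 2iL is that shallow library alone, and the differences rest on it. They then came to -3.59 for Dnmt3a (adjusted p = 0.00128), -3.78 for Hsf2bp (adjusted p = 0.012) and -13.93 for Lncenc1 (adjusted p = 0.00258), which has no count in the shallow library, so this says nothing about their stability. The differences of Trh (2.66, adjusted p = 0.897), Tdrd12 (-2.24, adjusted p = 0.578) and Sfrp1 (2.00, adjusted p = 0.991) were of similar size and no longer called. The difference of Spn came to -11.71, and those of Ddah1, Epha4 and Slc2a3 turned sign. Spn, Ddah1, Epha4 and Slc2a3 also have no count in the shallow library, which sets these values. Sfrp1 was also lost without 2i 48 h replicate 2 (adjusted p = 0.0517), and Spn without 2i 36 h replicate 1 (adjusted p = 0.0576). DESeq2 did not call Hsf2bp (adjusted p = 0.0899) or Spn (adjusted p = 0.118).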

How the results depend on the processing

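The counts of called genes moved with the tool, with the libraries fitted and with single libraries. Against 110 rises and 116 falls, DESeq2 called 34 and 34 (33 and 34 of them the same genes), the 2i course alone gave 256 and 294, the 4 libraries alone 366 and 371, these 4 with a replicate block 484 and 483, and the fit without 4 libraries that stand apart (in 2iL replicate 1 at 48 h, replicate 2 at 84 h and replicate 1 at 96 h, and in 2i replicate 2 at 12 h) 276 and 279. A fold of at least 1.5 left 23 and 32, and adjusted p under 0.01 left 47 and 67. Leaving out 1 library gave 29 to 50 rises and 33 to 61 falls. The replicate block in the fit of all libraries gave 108 and 109; the numbers share only a number, with correlations of deviations from -0.109 to 0.12 between times. RLE gave 153 and 102 and shifted the median of all genes by 0.07.

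For the difference from 2iL 36 to 48 h, 36 genes higher and 83 lower became 9 and 5 by DESeq2, 44 and 50 by RLE, 77 and 169 without the 4 libraries that stand apart, and 5 to 58 and 13 to 169 without 1 library. Without 2iL 36 h replicate 1 the difference turned to -5.28 for Ddah1, -7.44 for Epha4 and -6.95 for Slc2a3. That fit assumes that the lone library of 7298 counts varies like the other groups. These genes have no count in that library, which sets the values, so they say nothing about stability. Without each other single library in turn the differences spanned 2.75 to 3.35, 2.39 to 2.55 and 2.69 to 2.97. For the difference from 2iL 60 to 72 h, 1 and 0 became 3 and 1 without the 4 libraries that stand apart. For late against early times, DESeq2 called 1427 genes lower in place of 2965. The cause of these moves was not tested. Among the values of named genes under the alternatives, 828 kept their direction and side of the threshold, 153 lost the call and 3 reversed, and 977 counts per list stayed within 1.5 times while 253 did not. With 2 libraries a time and 1402548 to 2204675 counts each in the step, depth limits what can be detected in genes of a few counts.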
